A study of Homo sapiens with 9 samples.

Results

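The genes described here are 31 genes that act in mitosis and lie outside the chromosomal passenger complex (the Aurora B kinase and its partners). They were chosen by name for what their products do in division, with earlier results of these data known. All 31 were found among the 23369 genes of the deposited table, and all 31 passed the filter on low values, which kept 12642 genes with a value of at least 10 in at least 3 libraries. The samples are NCI-H1155 cells, an established human lung cancer line with neuroendocrine features, in 3 groups of 3 RNA-seq libraries. The control group received DMSO, the solvent. The other groups received 1 µM cabozantinib or 1 µM foretinib for 4 h, starting 24 h after plating. The length of the DMSO treatment was not given separately. Both drugs are inhibitors of several kinases and are structurally related, so the direct comparison of foretinib with cabozantinib at 1 dose and 1 time is one the design offers. The labels call the libraries biological triplicates of 1 line. Every p-value below therefore sets a difference between groups against the spread between cultures of that line. Libraries are named by group and by the number in their titles.

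Mitosis starts when cyclin B and its kinase CDK1 become active. Chromosomes then condense, the spindle is built by kinesin motors and microtubule-binding proteins, and the spindle assembly checkpoint holds the cell until every kinetochore is attached. The anaphase promoting complex with CDC20 then degrades securin and cyclin B, the chromosomes separate, and the midzone and contractile ring divide the cytoplasm. Most genes of the program are transcribed in G2 and mitosis, when the DREAM repressor has been replaced by MYB-MuvB and FOXM1 at a promoter element named the cell cycle genes homology region (CHR), often near CCAAT boxes bound by NF-Y. In a bulk culture the level of such a transcript follows both the share of cells in G2 and mitosis and the amount per cell, and these cannot be told apart here.

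The promoters are shown because shared elements are what the members are known for. RefSeq promoters (build GRCh38.p14, 250 bases before to 50 bases after the start site) were matched by symbol for 26 of the 31 members, with 32 windows because 4 members have more than 1 start site. UBE2C, TTK, AURKA, FOXM1 and TPX2 had no entry. The sequences below run from 120 bases before to 10 bases after the start site, 5′ to 3′ on the gene's own strand, with CHR motifs (TTTGAA or TTCGAA) and CCAAT boxes in capitals. A motif on the other strand appears as its reverse complement, which is TTCAAA for the first CHR form and ATTGG for the CCAAT box. TTCGAA reads the same on both strands.
PLK1, chr16:23678769-23678898, + strand: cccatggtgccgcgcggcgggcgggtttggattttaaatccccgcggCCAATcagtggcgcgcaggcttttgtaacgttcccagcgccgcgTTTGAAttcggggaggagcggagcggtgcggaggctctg
KIF11, chr10:92593010-92593139, + strand: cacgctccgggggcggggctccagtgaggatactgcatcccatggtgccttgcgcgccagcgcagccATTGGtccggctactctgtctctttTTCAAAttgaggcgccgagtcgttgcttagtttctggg
CDC20, chr1:43358861-43358990, + strand: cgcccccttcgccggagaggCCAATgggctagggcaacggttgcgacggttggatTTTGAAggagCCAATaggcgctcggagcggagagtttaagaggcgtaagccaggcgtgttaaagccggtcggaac
CDK1, the downstream start site, chr10:60778358-60778487, + strand: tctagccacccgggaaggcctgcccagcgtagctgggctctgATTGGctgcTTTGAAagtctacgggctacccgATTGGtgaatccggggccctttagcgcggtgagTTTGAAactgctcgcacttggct
CCNB1, chr5:69167030-69167159, + strand: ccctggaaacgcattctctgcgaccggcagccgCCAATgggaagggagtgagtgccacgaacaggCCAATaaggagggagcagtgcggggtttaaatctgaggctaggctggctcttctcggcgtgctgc
TOP2A, chr17:40417887-40418016, - strand: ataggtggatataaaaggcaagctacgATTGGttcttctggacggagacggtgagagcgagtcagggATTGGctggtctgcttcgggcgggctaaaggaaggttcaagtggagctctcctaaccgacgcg

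PLK1 and KIF11, whose foretinib libraries lay wholly below and wholly above the DMSO libraries, both carried a CCAAT box upstream of a CHR motif in this stretch. CDC20 and the downstream start site of CDK1 carried the same order of motifs, and their groups overlapped in all comparisons. The promoters of CCNB1 and of PTTG1 (not printed) carried CCAAT boxes and no TTTGAA or TTCGAA, the only CHR forms searched for. For both genes all cabozantinib libraries lay above all DMSO libraries. TOP2A had matches to these forms only farther upstream than the stretch printed. TTTGAA or TTCGAA, read on both strands, stood in 22 of the members' 32 windows (68.75%), against 16.35% of all 35116 RefSeq promoters of the same length. CCAAT, read on both strands, stood in 25 windows (78.1%) against 34.6% of all promoters, and both elements in 19 windows (59.4%) against 6.38%. No CHR match overlapped a CCAAT match. The 19 members with a CHR motif at any start site had a median log2 fold change of 0.04 for foretinib against DMSO, and the 7 with an entry and no match had -0.05. These are descriptions of letters in a window, and binding was not measured.

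No member passed the test in any comparison. The values are the authors' normalised read counts per gene, which are not scaled for gene length, so levels are compared between samples and not between genes. Differences were tested on the log2(value + 1) scale with limma, fitted to all 12642 genes and all 9 libraries. Benjamini-Hochberg adjustment was over all tested genes. On this scale values at or near 0 can give large log2 changes. Adding 10 or 100 in place of 1 moved the median over all tested genes for foretinib against DMSO from -0.34 to -0.29 or -0.15. The share of all tested genes with an adjusted p below 0.05 was 0% in the comparison of foretinib with DMSO, 0% in that of cabozantinib with DMSO and 0% in that of the drugs with each other, so the count of 0 members is the count for the whole table. On the recovered whole reads, edgeR also called 0 genes in each, while DESeq2 called 650, 47 and 618 genes in the same order and 0 members. With limma, the lowest adjusted p of any member was 0.528 with foretinib and 1 with cabozantinib, each against DMSO, and 0.513 between the drugs. At an unadjusted p below 0.05, the foretinib comparison with DMSO had 1 member higher (KIF11) and 0 lower, where 2.17% of all tested genes were higher and 6.9% lower. Cabozantinib against DMSO had 0 members, where 0.878% of genes were higher and 0.435% lower. Foretinib against cabozantinib also had 0, where 1.83% were higher and 8.08% lower. The comparisons with DMSO share the same control libraries.

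**Figure D1:**
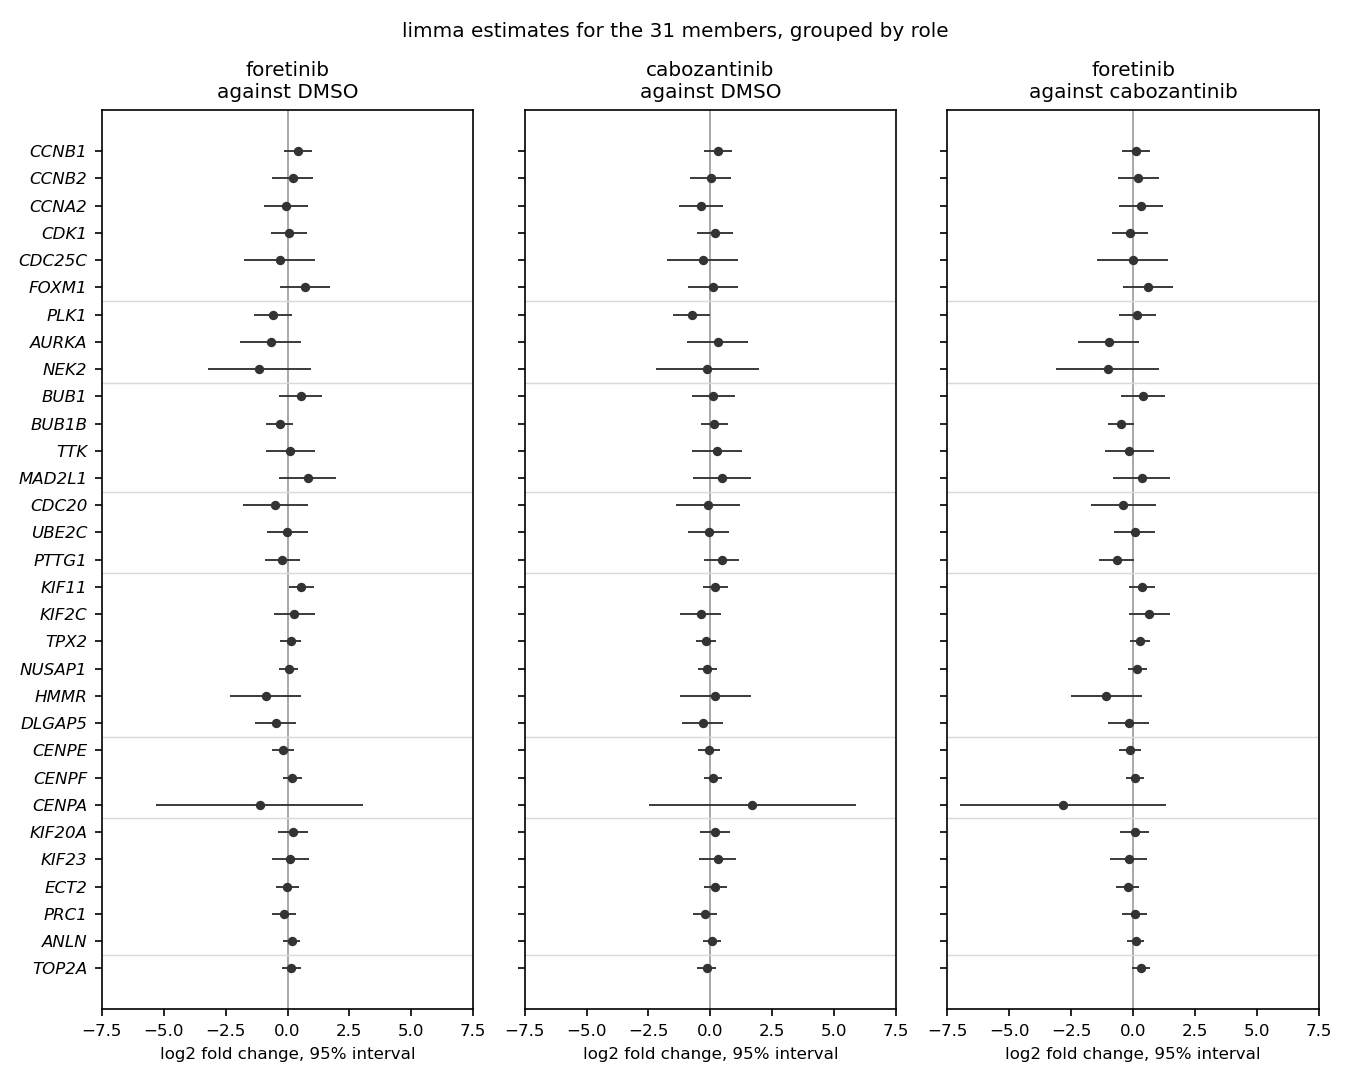
Each point is the limma log2 fold change of 1 member on the log2(value + 1) scale with its 95% interval, in the 3 comparisons, with members ordered and divided by role. Every interval but that of KIF11 for foretinib against DMSO (0.05 to 1.08) includes 0, and CENPA has the widest.

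The members' summed level differed little between the groups beside the spread of the libraries. The 31 values summed to 168885 ± 14312 (SD, n = 3) with DMSO, 171692 ± 6517 with cabozantinib and 183076 ± 11766 with foretinib. The foretinib sum was 1.084 times that of DMSO and 1.066 times that of cabozantinib, and the cabozantinib sum was 1.017 times that of DMSO. The foretinib ratio to DMSO was 1.062 with the TMM scaling of edgeR and 1.021 after quantile normalisation. As a share of all values of a library, the members made up 0.618% ± 0.052 with DMSO, 0.6245% ± 0.026 with cabozantinib and 0.644% ± 0.032 with foretinib. The libraries ran from 153990 to 182533 with DMSO, from 164427 to 177022 with cabozantinib and from 172209 to 195572 with foretinib, so all 3 ranges overlapped. The members' median log2 fold change against DMSO was 0.04 with foretinib and 0.11 with cabozantinib, and between the drugs it was 0.06 in the direction of foretinib, but after quantile normalisation the foretinib medians were -0.05 against DMSO and -0.04 against cabozantinib. Members above and below 0 numbered 16 and 15, 18 and 13, and 17 and 14. The median over all tested genes was -0.34, 0.04 and -0.44 in the same order, and over the 5488 genes with a mean of at least 1000 it was -0.03, 0.01 and -0.04.

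The foretinib libraries held more genes listed at 0. Of the tested genes, 18.5% ± 2.38 were at 0 with foretinib, 7.25% ± 3.14 with DMSO and 5.01% ± 0.544 with cabozantinib (SD, n = 3). No member was at 0 in any library. Recovered depth was 26996023 to 34062153 reads with foretinib, 27257862 to 32986439 with DMSO and 27264766 to 27522332 with cabozantinib. Of 9 neuroendocrine markers, 9 were above 0 in every DMSO and cabozantinib library and 8 in every foretinib library, with sums of 45967 to 50502, 49981 to 55181 and 53801 to 56408. Of other cell types, 4 of 5 leukocyte markers (PTPRC, CD3E, CD79A, CD14), 3 of 4 endothelial markers (CDH5, VWF, KDR) and 3 of 5 fibroblast markers (COL3A1, DCN, PDGFRB) were at 0 in all 9 libraries. The leukocyte list summed to at most 71.3 with DMSO, 61.6 with cabozantinib and 9.04 with foretinib, and the endothelial list to at most 87.4, 53.2 and 0. Of 3 red cell markers, HBA1 and HBB were at 0 throughout. HBA2 was above 0 only with cabozantinib, where the list summed to at most 140.5. The fibroblast list summed to 453 to 1258 with DMSO, 767 to 1049 with cabozantinib and 869 to 1194 with foretinib. The 4 epithelial markers summed to 3962 to 6554, 4271 to 6674 and 2603 to 5109 in that order, and CDH1 was at 0 in all foretinib libraries. The part of the foretinib zeros and of these markers in any result below was not tested.

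Among the genes for entry into mitosis and its transcription, no member passed the test, and CCNB1 was the one gene of this role with groups that did not overlap, which held for cabozantinib against DMSO. CCNB1, the cyclin B1 that activates CDK1, was at 4814, 6362 and 6310.1 in DMSO 2, 4 and 5, at 7012, 6747 and 7554 in cabozantinib 3, 4 and 5, and at 9860.3, 9323 and 4954 in foretinib 1, 2 and 4. All cabozantinib libraries were above all DMSO libraries, while foretinib 4 was within the DMSO range. The log2 fold change was 0.30 for cabozantinib (95% interval -0.27 to 0.86, adjusted p = 1 by limma) and 0.41 for foretinib (-0.15 to 0.98, adjusted p = 0.565). Foretinib exceeded cabozantinib by 0.12 (-0.45 to 0.68), a difference below 0 without foretinib 1 (-0.06), without foretinib 2 (-0.02) and with a replicate block (-0.07). The block used the title numbers. Those of foretinib 1 and cabozantinib 3 occur in no other library, so neither library carried weight in that fit.

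CDK1, the kinase itself, was at 2122, 5126 and 4265 in the DMSO libraries, 3371, 4522 and 4435 with cabozantinib and 2922, 4669 and 3815 with foretinib. The DMSO libraries alone spanned the other 6, with DMSO 2 lowest and DMSO 4 highest. The log2 fold changes were 0.18 for cabozantinib (-0.55 to 0.91) and 0.06 for foretinib (-0.67 to 0.79), and the latter is below 0 under several other settings. Cyclin B2, CCNB2, had group means of 2286 ± 992, 2206 ± 444 and 2563 ± 637 (SD, n = 3) in DMSO, cabozantinib and foretinib, and the A-type cyclin CCNA2 had 2553 ± 431, 1970.5 ± 356 and 2747 ± 1735. Foretinib libraries of CCNA2 ran from 1658 to 4748. The phosphatase gene CDC25C, which removes the inhibitory phosphates of CDK1, had 1439.8 ± 364, 1194 ± 414 and 1462 ± 969.8.

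FOXM1, the transcription factor that drives many of the other members, was at 3342, 3783 and 2175 with DMSO, 3827, 2543 and 3523 with cabozantinib and 8113, 7847 and 1919.7 with foretinib. Foretinib 1 and 2 were above every other library, and foretinib 4 was below all of them, so the groups overlapped. FOXM1 was singled out after its values were seen. The log2 fold change for foretinib against DMSO was 0.72 (-0.30 to 1.73, adjusted p = 0.578 by limma), and without foretinib 4 it was 1.40 (adjusted p = 0.102).

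**Figure D2:**
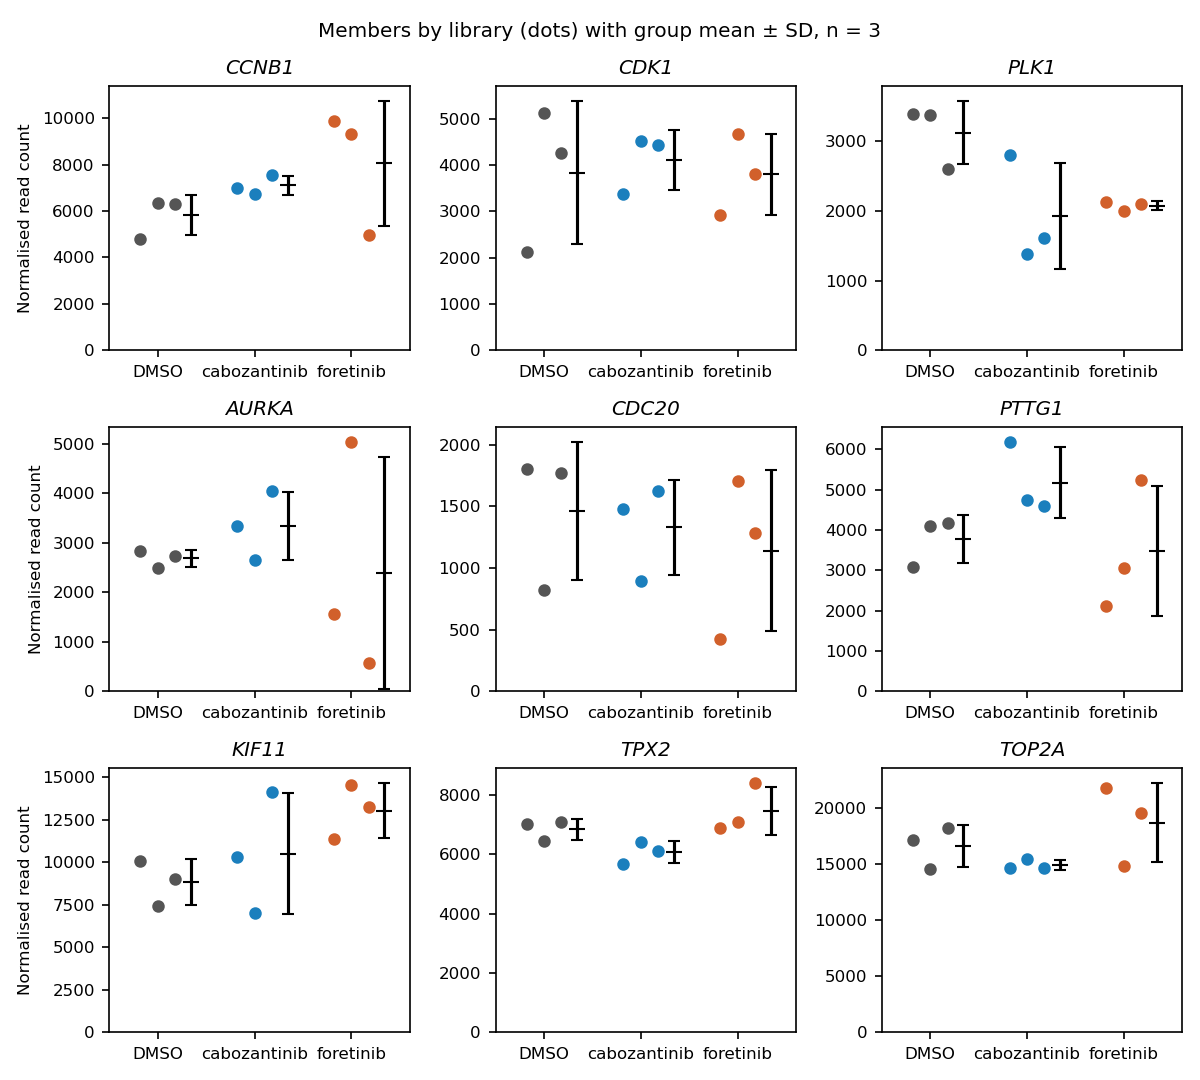
Normalised read count of 9 members in each library (dots) with the group mean ± SD (n = 3), from 0. PLK1 in all foretinib libraries (2002 to 2130.4) lies below all DMSO libraries (2601 to 3397), KIF11 lies above them (11351 to 14579 against 7434 to 10082), and AURKA with foretinib runs from 582 to 5035.

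Of the mitotic kinases, PLK1 and NEK2 had lower means with both drugs than with DMSO, and no kinase passed the test with either. PLK1, the Polo-like kinase of centrosome maturation, mitotic entry and cytokinesis, was at 3397, 3381 and 2601 with DMSO, 2800.1, 1382 and 1619 with cabozantinib and 2130.4, 2002 and 2101 with foretinib. The foretinib libraries lay within a narrow band below all DMSO libraries, and 1 cabozantinib library, cabozantinib 3, was inside the DMSO range. Mean levels were 1.505-fold lower with foretinib and 1.62-fold lower with cabozantinib than with DMSO. The log2 fold change was -0.58 for foretinib (SE 0.35, -1.34 to 0.18, adjusted p = 0.552 by limma) and -0.75 for cabozantinib (SE 0.35, -1.51 to 0.01, unadjusted p = 0.0518, adjusted p = 1). Between the drugs the difference was 0.17 (-0.59 to 0.93, adjusted p = 0.855), and it was -0.04 without cabozantinib 4.

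AURKA, the Aurora A kinase of centrosomes and spindle poles, was at 2827, 2492 and 2733 with DMSO, 3335, 2657 and 4035 with cabozantinib and 1565, 5035 and 582 with foretinib. Foretinib held both the highest and the lowest AURKA value of the series. The log2 fold change for foretinib against DMSO was -0.69 (-1.93 to 0.55, adjusted p = 0.662 by limma). It was -1.49 without foretinib 2 and 0.07 without foretinib 4. Against cabozantinib it was -0.99 (-2.23 to 0.25, adjusted p = 0.537), and it ran from -1.79 without foretinib 2 to -0.23 without foretinib 4. NEK2, a kinase that separates centrosomes, showed the same library at the bottom, with 699.7, 1367 and 77.4 in foretinib 1, 2 and 4 beside means of 959 ± 292 with DMSO and 909.6 ± 378 with cabozantinib. Its log2 fold change for foretinib against DMSO was -1.14 (-3.22 to 0.93), and 0.07 without foretinib 4. NEK2's libraries are given after its values were seen.

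Groups overlapped for each of the spindle checkpoint genes in all 3 comparisons, and none passed the test. BUB1, a checkpoint kinase at kinetochores, had means of 3098 ± 908 with DMSO, 3356 ± 916 with cabozantinib and 4799 ± 2392 with foretinib. BUB1B, which encodes the checkpoint protein BUBR1, had 5320.0 ± 695, 5977 ± 960.4 and 4311 ± 1112, with a log2 difference of -0.49 between foretinib and cabozantinib (-1.03 to 0.05, adjusted p = 0.519 by limma). TTK, the MPS1 kinase, had 2414 ± 494, 2911 ± 614 and 3024 ± 1789, and MAD2L1, the MAD2 inhibitor of CDC20, had 1185 ± 728, 1552 ± 652 and 1915 ± 549.8. MAD2L1 had the highest positive log2 fold change of the members for foretinib against DMSO, at 0.82 (-0.33 to 1.98).

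Of the genes of the anaphase promoting complex and its substrate securin, PTTG1 was the member with the lowest adjusted p between the drugs and did not pass. PTTG1, securin, was at 3090.1, 4089 and 4166 with DMSO, 6180.2, 4741 and 4602 with cabozantinib and 2125, 3049 and 5248 with foretinib. All cabozantinib libraries were above all DMSO libraries, and foretinib 4 was above 2 of the cabozantinib libraries. The log2 fold change was 0.45 for cabozantinib against DMSO (-0.25 to 1.15, adjusted p = 1 by limma) and -0.66 for foretinib against cabozantinib (SE 0.32, -1.36 to 0.04, adjusted p = 0.513). With the title numbers as a replicate block, where foretinib 1 and cabozantinib 3 carried no weight, the difference between the drugs turned to 0.04. PTTG1 has near-identical copies in the genome, so its count may be shared with them.

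CDC20, the activator of the complex, was at 1803, 821 and 1769.9 with DMSO, 1475, 896 and 1621 with cabozantinib and 427, 1707 and 1285 with foretinib. Each group held 1 library well below its other 2. The log2 fold changes were -0.10 for cabozantinib (-1.40 to 1.21) and -0.49 for foretinib (-1.80 to 0.81) against DMSO, and the latter was 0.10 without foretinib 1 and 0.27 with a replicate block. UBE2C, the ubiquitin-conjugating enzyme of the complex, had means of 4367 ± 925, 4301 ± 1711 and 4708 ± 2666 with DMSO, cabozantinib and foretinib.

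KIF11, a spindle assembly gene, was the only member whose interval left out 0. KIF11 encodes Eg5, the kinesin that pushes spindle poles apart. It was at 10082, 7434 and 9055 with DMSO, 10330.2, 7055 and 14151 with cabozantinib and 11351, 14579 and 13235 with foretinib. Every foretinib library was above every DMSO library, while the cabozantinib libraries ran from below the DMSO range to within the foretinib range. The mean was 1.47 times that of DMSO with foretinib. The log2 fold change was 0.56 (SE 0.24, 0.05 to 1.08, unadjusted p = 0.034, adjusted p = 0.528 by limma). It stayed between 0.44 and 0.66 with any 1 library left out, and no alternative took its adjusted p below 0.152. Against cabozantinib the difference was 0.36 (-0.15 to 0.88, adjusted p = 0.569).

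TPX2, which activates Aurora A on spindle microtubules, was at 7025, 6444 and 7082 with DMSO, 5692, 6434 and 6117 with cabozantinib and 6895, 7090.0 and 8408 with foretinib. All cabozantinib libraries were below all libraries of both other groups, but the highest of them, at 6434, lay just under DMSO 4 at 6444. The log2 differences were -0.17 for cabozantinib against DMSO (-0.58 to 0.24, adjusted p = 1 by limma) and 0.29 for foretinib against cabozantinib (-0.12 to 0.70, adjusted p = 0.568). The other spindle genes overlapped between groups. The microtubule bundler NUSAP1 had means of 9190.2 ± 859, 8478 ± 812 and 9464 ± 744, the depolymerising kinesin KIF2C 2884 ± 623, 2231 ± 663 and 3656 ± 1433, and DLGAP5 (HURP, a kinetochore fibre protein) 4142 ± 1514, 3211 ± 219 and 3118 ± 1510.5. HMMR, a spindle-pole protein, was at 1513, 771 and 232 in foretinib 1, 2 and 4, beside means of 1218 ± 312 with DMSO and 1373 ± 118 with cabozantinib, and its log2 fold change for foretinib against DMSO moved from -0.88 to -0.14 without foretinib 4.

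Of the centromere and kinetochore genes, CENPA varied most between libraries of a group, and none passed the test. CENPA, the histone H3 variant that marks centromeres, was at 68.2, 1082 and 859 with DMSO, 1357, 1610.4 and 1013 with cabozantinib and 2.47, 672 and 2637 with foretinib. DMSO 2 and foretinib 1 were far below the rest, and foretinib 4 was the highest. Its foretinib mean was 1.65 times the DMSO mean, but the log2 fold change had the opposite sign at -1.13 (-5.30 to 3.05), and it was 1.73 without foretinib 1. CENPE, the kinesin that moves chromosomes to the spindle equator, had 26934, 14024 and 17127 with DMSO, 16278, 16972 and 21292 with cabozantinib and 15920.2, 16459.9 and 17045 with foretinib. The foretinib libraries lay close together and inside the DMSO range, and the log2 fold change was -0.18 (-0.63 to 0.28). CENPF, a large kinetochore protein, had means of 13663 ± 2264, 14652 ± 873 and 15576 ± 1893. Per-library values of HMMR, CENPA and CENPE were chosen after they were seen.

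None of the midzone and cytokinesis genes passed the test. The 95% interval lay within 2-fold in both directions for 5 of 5 of these genes in both foretinib comparisons and for 4 of 5 in cabozantinib against DMSO. KIF20A (MKLP2), a kinesin of the midzone, had means of 4197 ± 906, 4734 ± 882 and 4985 ± 1313 with DMSO, cabozantinib and foretinib, and KIF23 (MKLP1), the kinesin of centralspindlin, had 4775 ± 2009.8, 5469 ± 499 and 5021 ± 1660.1. PRC1, which bundles midzone microtubules, had 5928 ± 237, 5129 ± 689 and 5416 ± 1229, and ECT2, the exchange factor that activates RhoA at the equator, 6335 ± 338, 7395 ± 1272 and 6385 ± 1133. ANLN, the anillin scaffold of the contractile ring, had 16707 ± 2552, 17327 ± 668 and 18648 ± 2486.

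TOP2A, the topoisomerase that untangles and condenses chromosomes, was at 17130.0, 14598 and 18257 with DMSO, 14679.8, 15447 and 14638 with cabozantinib and 21781, 14869 and 19558 with foretinib. Groups overlapped throughout. The log2 difference was 0.16 for foretinib against DMSO (-0.21 to 0.52), -0.15 for cabozantinib against DMSO (-0.52 to 0.21) and 0.31 between the drugs (-0.06 to 0.68, adjusted p = 0.526 by limma).

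Over all 31 members, groups that did not overlap numbered 0 to 2 genes in each direction of each comparison. For foretinib against DMSO, 1 member was higher (KIF11) and 1 lower (PLK1), beside 3.99% and 7.69% of all tested genes. For cabozantinib against DMSO, 2 were higher (CCNB1, PTTG1) and 1 lower (TPX2), beside 5.18% and 4.71%. For foretinib against cabozantinib, 1 was higher (TPX2) and 0 lower, beside 4.49% and 9.7%. A shift of more than 2-fold lay outside the 95% interval for 16, 16 and 15 of the 31 members in the 3 comparisons (51.6%, 51.6% and 48.4%). The same held for 13.4%, 16.1% and 13.1% of all tested genes, and for 31%, 37% and 30.2% of genes with a mean of at least 1000. It held in all 3 comparisons for 12 members: ANLN, TOP2A, CENPF, NUSAP1, TPX2, CENPE, ECT2, PRC1, CCNB1, KIF20A, CDK1 and UBE2C. It held in none for 11, which were KIF2C, DLGAP5, TTK, FOXM1, MAD2L1, AURKA, CDC20, CDC25C, HMMR, NEK2 and CENPA, so for these each of the 3 intervals reached past 2-fold in at least 1 direction. The fit gave each gene 1 spread over all 9 libraries, so a member's interval had the same width in all 3 comparisons. The spread of the foretinib libraries therefore also entered the intervals for cabozantinib against DMSO. In turn, the foretinib intervals can be too narrow for members that vary most with foretinib. Among the 12, UBE2C had coefficients of variation of 21.2% with DMSO, 39.8% with cabozantinib and 56.6% with foretinib. Those of CCNB1 were 15.1%, 5.79% and 33.4%. For AURKA the coefficient of variation was 6.44% with DMSO, 20.6% with cabozantinib and 97.7% with foretinib.

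**Figure D3:**
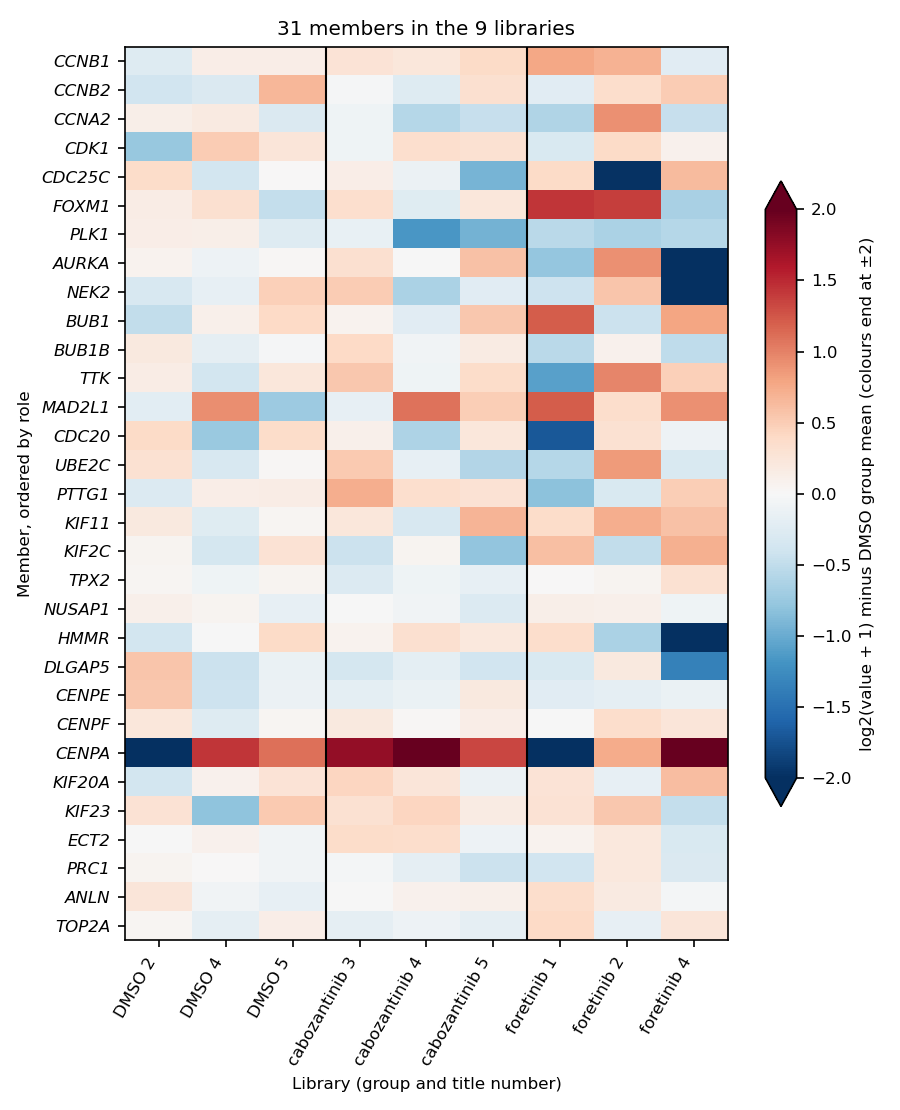
Colour gives log2(value + 1) of each of the 31 members (rows, ordered by role) in each of the 9 libraries (columns) minus the mean of the DMSO group, with colours ending at ±2. FOXM1 is high in foretinib 1 and 2 and low in foretinib 4, while AURKA, NEK2 and HMMR are lowest in foretinib 4, and no foretinib column is of 1 colour throughout.

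The foretinib libraries held different members at their extremes. Foretinib 1 held the lowest of the 9 values for 6 members and the highest for 7 (19.35% and 22.6%), where 18.9% and 18.3% of the 7805 genes with a mean of at least 500 had their lowest and highest value in it. Foretinib 2 held the lowest for 1 and the highest for 9 (3.23% and 29.0%), where it held 18.96% and 21.4% of those genes. Foretinib 4 held the lowest for 6 and the highest for 5 (19.35% and 16.1%), where it held 21.2% and 19.4%. The members' median difference from the DMSO mean on the log2 scale was 0.22 in foretinib 2, 0.00 in foretinib 1 and -0.09 in foretinib 4, so foretinib 2 was the library in which the members stood highest. In all, 21 of 31 members had their highest value in a foretinib library (67.7%) and 13 their lowest (41.9%), against 59.15% and 59.05% of those genes. The median coefficient of variation of the members was 21.2% with DMSO, 18.05% with cabozantinib and 33.1% with foretinib, beside 27.9%, 23.7% and 48.9% for the same 7805 genes. It was higher with foretinib than with DMSO for 21 members (67.7%) and for 76.1% of those genes. AURKA went from 6.44% with DMSO to 97.7% with foretinib, whereas PLK1 went from 14.6% to 3.23% and CENPE from 34.8% to 3.41%.

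**Figure D4:**
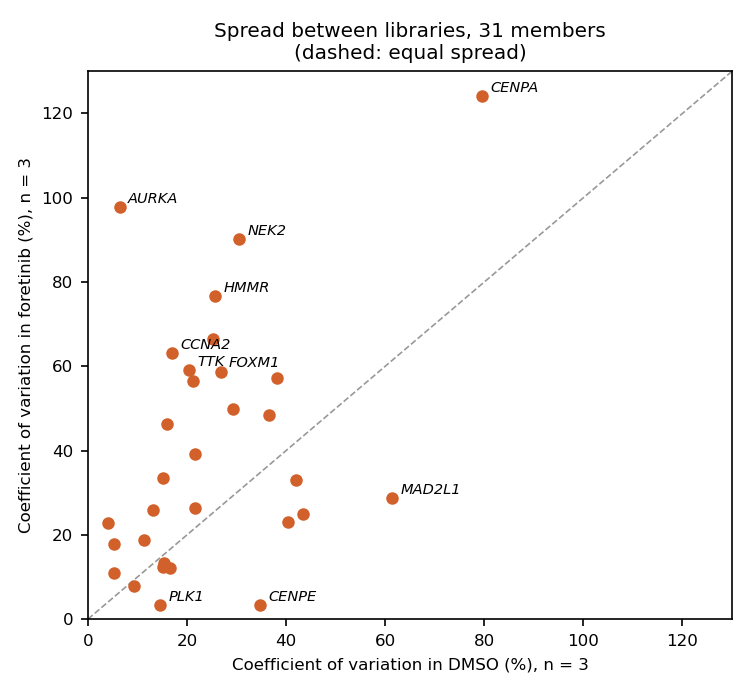
Coefficient of variation between the 3 libraries of a group, in percent, with DMSO on the horizontal and foretinib on the vertical axis, 1 dot per member; the dashed line marks equal values. AURKA (6.44% and 97.7%) lies far above the line, and CENPE (34.8% and 3.41%) and PLK1 (14.6% and 3.23%) below it.

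The wider mitotic program was read from a list of 122 other kinetochore, anaphase promoting complex, cohesin, condensin, spindle and entry genes, of which 121 were in the table. None passed the adjusted test in any comparison. At an unadjusted p below 0.05 by limma, 6 were higher (4.96%) and 4 lower (3.31%) for foretinib against DMSO, beside 2.17% and 6.9% of all tested genes. For cabozantinib against DMSO the counts were 0 and 0, beside 0.878% and 0.435%. Between the drugs, 1 was higher with foretinib (0.826%) and 5 lower (4.13%), beside 1.83% and 8.08%. Of genes with a mean of at least 1000, 3.97% and 3.88%, 0.528% and 0.31%, and 3.7% and 4.34% were higher and lower in that order. The median log2 fold changes of the 121 were 0.02, 0.09 and 0.00, near those of the 31 members. The 4 with the smallest p in each comparison are given next, and none passed the adjusted test of limma. NCAPH, a condensin I subunit, was at 7593 ± 1151 with DMSO and 4800.1 ± 507 with foretinib (log2 -0.66, SE 0.21, -1.11 to -0.20, adjusted p = 0.406 by limma). It was at 5591 ± 335 with cabozantinib (-0.43, adjusted p = 1).

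For foretinib against DMSO the other 3 were ANAPC2, NSL1 and KIF4A. ANAPC2, a core subunit of the anaphase promoting complex, was at 336 ± 86.3 with DMSO and had a listed value of 0 in every foretinib library. NSL1, a subunit of the MIS12 kinetochore complex, was at 755.5 ± 193 with DMSO and 2059 ± 719.8 with foretinib (1.41, adjusted p = 0.472 by limma). KIF4A, a chromosome-bound kinesin, was at 4763 ± 246 with DMSO and 6858 ± 376 with foretinib (0.53, adjusted p = 0.523 by limma).

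For cabozantinib against DMSO the others beside NCAPH were HJURP, WAPAL and NCAPD2, each with an adjusted p of 1 by limma. HJURP, the chaperone that loads CENPA, was at 1982 ± 710.2 with DMSO and 3423 ± 694 with cabozantinib (0.84, -0.03 to 1.71). WAPAL, the cohesin release factor, had a log2 fold change of -0.55 (-1.19 to 0.08), and the condensin I subunit NCAPD2 had -0.44 (-1.04 to 0.15).

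Between the drugs the 4 were KIF15, ANAPC2, HAUS1 and MIS12. KIF15, a kinesin that can share the spindle role of KIF11, was at 1189 ± 232 with cabozantinib and 3178 ± 693 with foretinib (1.42, adjusted p = 0.377 by limma). HAUS1, an augmin subunit, was listed at 0 in foretinib 1 and 2 and at 1047 in foretinib 4, beside 647, 748 and 976 with cabozantinib. MIS12 of the kinetochore was likewise listed at 0 in foretinib 1 and 2 and at 206 in foretinib 4, beside 587, 197 and 363 with cabozantinib.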

How the data were processed

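The authors deposited 1 table of normalised signal per gene (normalised read counts) for the 9 libraries, made, per the submitters' processing notes, with build hs37d5 and with HTSeq, DESeq2, TopHat2 2.0.13 and Cufflinks 2.2.1, in an order and with settings that are not stated. Low values were whole multiples of 1 step per library: 100% of values came out as whole reads within a tolerance of 1e-06, which gives the depths stated. edgeR 4.0.16 (quasi-likelihood) and DESeq2 1.42.0 on those reads were alternatives, and edgeR called 0 genes in each comparison. The test was limma 3.58.1 (R 4.3.3) on log2(value + 1) for genes at 10 or more in at least 3 libraries, with all 9 libraries in 1 model. Other pseudocounts, filters and scalings, a replicate block and leaving out each library were tried. The members and lists were chosen with earlier results of these data known. Values in every library were given for CCNB1, CDK1, PLK1, AURKA, CDC20 and TOP2A, for members whose interval leaves out 0 and for those whose groups do not overlap, and at most 4 other mitotic genes per comparison were named, by smallest p. How strand and multi-mapped reads were counted is not stated in the labels.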

Additional observations from a re-analysis of the deposited data

How the results depend on the processing

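No alternative called any of the 31 members, with a lowest adjusted p of 0.102 (FOXM1, foretinib against DMSO without foretinib 4). Over all genes limma called 0 in each comparison (1146, 166 and 1252 at an unadjusted p below 0.05 for foretinib against DMSO, cabozantinib against DMSO and foretinib against cabozantinib), DESeq2 called 650, 47 and 618, and quantile normalisation called 1 for foretinib against DMSO. The cause of the difference between methods was not tested. Limma fitted to only the 6 libraries compared had 621, 516 and 933 genes at that unadjusted p and called 0. With 1 library left out, the members' median log2 fold change ran from -0.11 to 0.10, from -0.02 to 0.15 and from -0.11 to 0.13 in that order. The ratio of summed levels for foretinib over cabozantinib was 1.066 and 1.004 after quantile normalisation.

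Several uncalled differences changed sign. CDK1 for foretinib against DMSO was -0.0569 after quantile normalisation, -0.0456 with edgeR and -0.0128 with DESeq2. The labels do not say whether libraries with the same title number share a culture batch. Deviations from the group means correlated at -0.00484 to 0.0230 between same-numbered libraries over 7805 genes, and at -0.0329 to 0.0293 between others. The pairs are few and the means are of 3 libraries, so these values cannot decide it. With the title numbers as a replicate block, 0 genes were called, and the members' medians were 0.11, 0.13 and 0.10. The numbers of foretinib 1 and cabozantinib 3 occur in no other library, so these libraries carried no weight in the block fit. Its changes therefore cannot be told apart from those of leaving these libraries out. CDC20 (0.27) and PTTG1 (0.17) turned for foretinib against DMSO. CCNB1 (-0.0657), CDK1 (0.20), CDC20 (0.36) and PTTG1 (0.0435) turned for foretinib against cabozantinib under the block. Without foretinib 1 alone, CDC20 (0.10) and PTTG1 (0.0939) also turned for foretinib against DMSO. For foretinib against cabozantinib, CCNB1 (-0.0624), CDK1 (0.0510) and CDC20 (0.20) turned without it, while PTTG1 (-0.36) did not. With 1 library left out, 14 of the 31 members changed sign at least once in each comparison. Among the 9 members given in every library by rule, ranges that crossed 0 for foretinib against DMSO were CDK1 -0.32 to 0.31, AURKA -1.49 to 0.0665, CDC20 -0.90 to 0.10 and PTTG1 -0.56 to 0.0939. For cabozantinib against DMSO they were CDK1 -0.20 to 0.44, CDC20 -0.47 to 0.17 and KIF11 -0.0419 to 0.46. For foretinib against cabozantinib they were CCNB1 -0.0624 to 0.43, CDK1 -0.29 to 0.0510, PLK1 -0.0359 to 0.47 and CDC20 -0.80 to 0.20. With 3 libraries a group, wide intervals limit what can be said of AURKA, NEK2, HMMR and CENPA.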
